A study of Mus musculus with 12 samples.

Results

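Gene expression in a fast-twitch hindlimb muscle of the mouse, the extensor digitorum longus (EDL), was measured by RNA-seq under 2 genotypes and 2 activity conditions, and the question was whether the response to endurance training differed between the genotypes. All 12 libraries of the series belong to this design, with 3 in each of 4 groups: WT sedentary, strNrip1-/- sedentary, WT trained and strNrip1-/- trained. The animals were males. The strNrip1-/- mice carried floxed Nrip1 alleles and a Cre recombinase under the muscle creatine kinase promoter, which is active in both heart and skeletal muscle, and the WT mice, labelled Ctrl, were littermate controls. Training was voluntary wheel running at night that began at 8 weeks of age, wheels were taken away before tissue collection, and mice that ran little were removed from the study, so the trained groups hold runners.

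Nrip1 encodes RIP140, a corepressor that nuclear receptors such as the estrogen-related receptors and the PPARs recruit to hold down genes of fatty acid oxidation and respiration. Fast-twitch muscle is known to contain more of it than slow-twitch muscle. Endurance training acts on many of the same genes, in part through the coactivator PGC-1α, so loss of RIP140 and training could add up or could depend on each other.

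The targeted gene went against the labels. Nrip1 (ENSMUSG00000048490, chr16:76287400-76373827, minus strand, GRCm38) was at 3.6, 2.55 and 3.84 FPKM in WT sedentary, 15.5, 16.3 and 14.9 FPKM in strNrip1-/- sedentary, 2.53, 4.76 and 3.56 FPKM in WT trained and 20.7, 14.9 and 16.6 FPKM in strNrip1-/- trained libraries, where FPKM is fragments per kilobase of transcript scaled to the sequenced fragments. Every library labelled strNrip1-/- was above every library labelled WT, opposite to what a deletion gives. The log2 difference between the labels was 2.08 in sedentary muscle (adjusted p = 0.000277, limma) and 2.14 in trained muscle (adjusted p = 0.000208), and the interaction was 0.06 (95% interval −0.56 to 0.67). The deposited table gives 1 value per gene and does not separate the floxed exon, which holds the coding sequence, from the other exons. Genes of fatty acid oxidation, which RIP140 is known to hold down, had medians on the strNrip1-/- side in both conditions (log2 differences of 0.48 in sedentary and 0.57 in trained muscle). Which exons the Nrip1 fragments came from was not tested. All directions below are those of the labels, and "strNrip1-/-" and "WT" stand for the libraries so labelled.

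The interaction of a gene was the strNrip1-/- minus WT difference in trained muscle less the same difference in sedentary muscle, on log2(FPKM + 0.5). A positive value means that strNrip1-/- libraries gained more, or lost less, with training than WT libraries did. Of 17752 genes in the table, 12744 averaged 0.5 FPKM or more over the libraries and were tested. No gene passed an adjusted p of 0.05 in limma (0 of 12744, 0%), and the smallest adjusted p was 0.335. At an unadjusted p under 0.05 there were 989 genes (7.76%), of which 560 were positive (4.39%) and 429 negative (3.37%). The precision behind these estimates was limited, with a median SE of 0.199 and a median 95% interval of 0.438 to either side. None of the genes described below is therefore shown to respond differently by genotype after correction, and their values are given as measured.

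The 4 simple effects show where such differences come from. At an adjusted p under 0.05 and a fold above 1.2, 447 genes differed between genotypes in sedentary muscle (3.51%), 245 of them higher in strNrip1-/- (1.92%) and 202 lower (1.59%), and 762 in trained muscle (5.98%), 409 higher (3.21%) and 353 lower (2.77%). At an unadjusted p under 0.05 these were 2080 (16.3%) and 2683 (21.1%). No gene passed that rule between trained and sedentary muscle in WT (1061 at an unadjusted p under 0.05, 8.33%) or in strNrip1-/- libraries (1544 at an unadjusted p under 0.05, 12.1%). With 1 library left out the sedentary count was lowest without WT sedentary replicate 1 (163) and the trained count without strNrip1-/- trained replicate 3 (315), and 30 genes passed for training in WT without WT trained replicate 1. A larger count in trained muscle does not show that any gene's genotype effect depended on training, which is what the interaction tests.

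**Figure D1:**
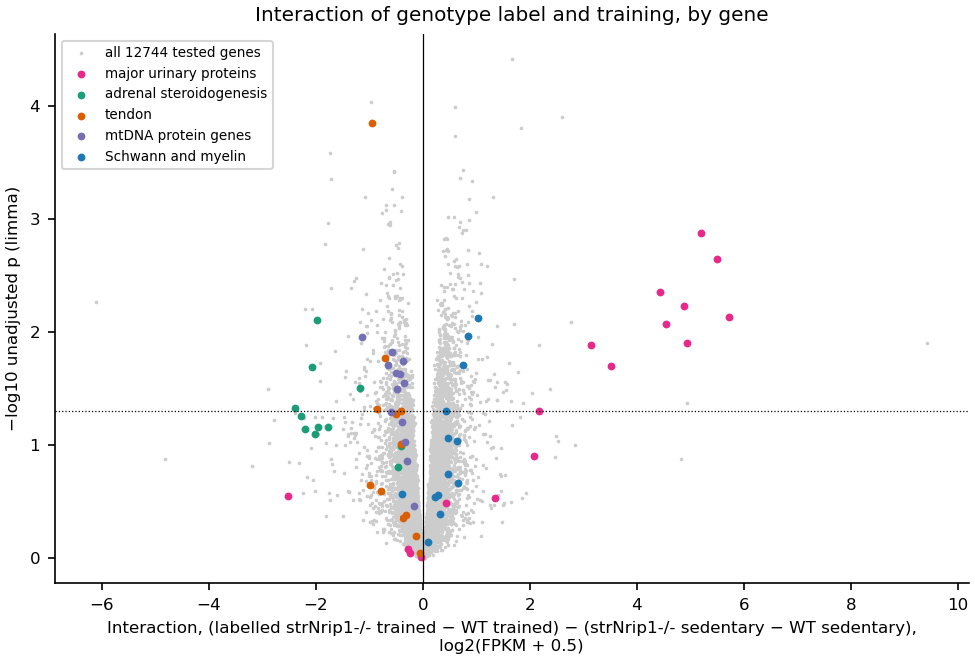
Interaction of the 12744 tested genes on log2(FPKM + 0.5) (x axis) against −log10 of the unadjusted limma p (y axis); the dotted line marks the 0.05 level and colors mark 5 gene groups. Major urinary protein genes extend to the right and adrenal genes to the left, while the smallest p values belong to genes with narrower differences.

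The largest differences of differences among protein-coding genes were in the major urinary proteins, lipocalins made mainly by the liver that carry pheromones in urine and that are encoded by a cluster of near-identical genes on chromosome 4. Coding bases 1 to 90 of 4 members are shown because members this alike gave opposite patterns across the libraries. All lie on the minus strand of GRCm38, and capitals mark bases that differ from Mup19.
Mup19 (chr4:61782069-61782158): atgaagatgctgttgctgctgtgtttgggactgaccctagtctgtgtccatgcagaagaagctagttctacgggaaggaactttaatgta
Mup7 (chr4:60070211-60070300): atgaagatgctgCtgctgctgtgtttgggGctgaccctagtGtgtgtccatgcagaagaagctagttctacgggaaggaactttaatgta
Mup9 (chr4:60421797-60421886): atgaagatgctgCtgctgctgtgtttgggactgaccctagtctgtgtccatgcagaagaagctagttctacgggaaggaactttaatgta
Mup1 (chr4:60501760-60501849): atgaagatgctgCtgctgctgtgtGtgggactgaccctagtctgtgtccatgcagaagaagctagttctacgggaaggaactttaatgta

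Of the 17 members tested, 11 shared the most frequent coding length of 540 nucleotides, and their 55 pairs were 98.5 to 99.8% identical with a median longest identical run of 251 nucleotides. How fragments were divided among such copies is uncertain, so the summed family is firmer than any member. The sum over 18 members was 270.4, 248 and 417 FPKM in WT sedentary, 257, 284 and 713 FPKM in strNrip1-/- sedentary, 10.8, 4.62 and 239 FPKM in WT trained and 224, 305 and 265 FPKM in strNrip1-/- trained libraries. WT trained replicates 1 and 2 were far below the other 10 libraries, and WT trained replicate 3 lay close to the strNrip1-/- trained group. Positive interactions were found for 13 of the 17 members, beside 51.3% of all tested genes. Of these 10 had an unadjusted p under 0.05, beside 4.39% of all genes, and the median was 3.14 beside 0.00719 over all genes. This list was drawn up after the values had been seen.

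Mup7 was at 59.5, 61.7 and 75.7 FPKM in WT sedentary, 39.7, 23.6 and 39.2 FPKM in strNrip1-/- sedentary, 0.472, 0.268 and 47 FPKM in WT trained and 56.2, 64 and 37.1 FPKM in strNrip1-/- trained libraries (interaction 4.94, SE 1.66, adjusted p = 0.579). Both values under 1 FPKM were in WT trained replicates 1 and 2, the libraries where the family sum was lowest, and every strNrip1-/- sedentary library was below every WT sedentary one. Without WT trained replicate 3 its interaction was 6.86 and it became the only gene called in any setting (adjusted p = 3.14e-05, beside a range of 3.14e-05 to 0.886 over all settings). Without WT trained replicates 1 and 2, a setting added after the values were seen that leaves 1 library in the group, it was 1.08 and the family median was 1.08.

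Mup19 had the largest estimate of the family and a different pattern. It was at 20.3, 35.3 and 60.6 FPKM in WT sedentary, 5.1, 3 and 6 FPKM in strNrip1-/- sedentary, 1.01, 0 and 23.3 FPKM in WT trained and 33.5, 51.7 and 3.74 FPKM in strNrip1-/- trained libraries (interaction 5.73, SE 1.75, adjusted p = 0.561). Besides WT trained replicates 1 and 2, the strNrip1-/- sedentary libraries and strNrip1-/- trained replicate 3 were low. Mup18 (5.49), Mup15 (5.21), Mup11 (4.88), Mup20 (4.54) and Mup14 (4.44) were also low in strNrip1-/- trained replicate 3. Mup12 (3.51), Mup3 (3.14) and Mup16 (2.16) completed the 10 members at an unadjusted p under 0.05.

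Mup9, whose coding sequence differs from that of Mup19 at 1 base, went the other way. It was at 35.5, 1.67 and 3.07 FPKM in WT sedentary, 62.9, 73.4 and 231 FPKM in strNrip1-/- sedentary, 0.508, 0.411 and 31.3 FPKM in WT trained and 1.95, 3.35 and 62.4 FPKM in strNrip1-/- trained libraries (interaction −2.53, SE 2.22, adjusted p = 0.808). Its highest values were in strNrip1-/- sedentary libraries and in strNrip1-/- trained replicate 3, where Mup19 was low. Mup1 had the same layout, with 58.5, 77.4 and 132 FPKM in strNrip1-/- sedentary and 6.46, 9.37 and 66.7 FPKM in strNrip1-/- trained libraries (interaction −0.24). Mup9 and Mup1 were singled out after their values were seen.

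Other liver transcripts did not share this layout. Albumin (Alb) was at 195, 180.0 and 327 FPKM in WT sedentary, 195, 217 and 304 FPKM in strNrip1-/- sedentary, 220.4, 44.6 and 60.5 FPKM in WT trained and 63.6, 125 and 65.2 FPKM in strNrip1-/- trained libraries (interaction −0.12, SE 0.71, adjusted p = 0.985). WT trained replicate 1 was at the sedentary level of albumin while its major urinary protein sum was near the bottom. Over 14 such plasma protein and liver genes, also listed after the values were seen, the median interaction was −0.11 and 0 had an unadjusted p under 0.05 in either direction. Their sums were 680.5, 632 and 1069 FPKM in WT sedentary, 678, 788 and 1132 FPKM in strNrip1-/- sedentary, 686, 181 and 273 FPKM in WT trained and 272, 470.4 and 288 FPKM in strNrip1-/- trained libraries. Except for WT trained replicate 1, every trained library was below every sedentary library. Whether liver RNA has a part in the interaction of other genes was not tested.

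**Figure D2:**
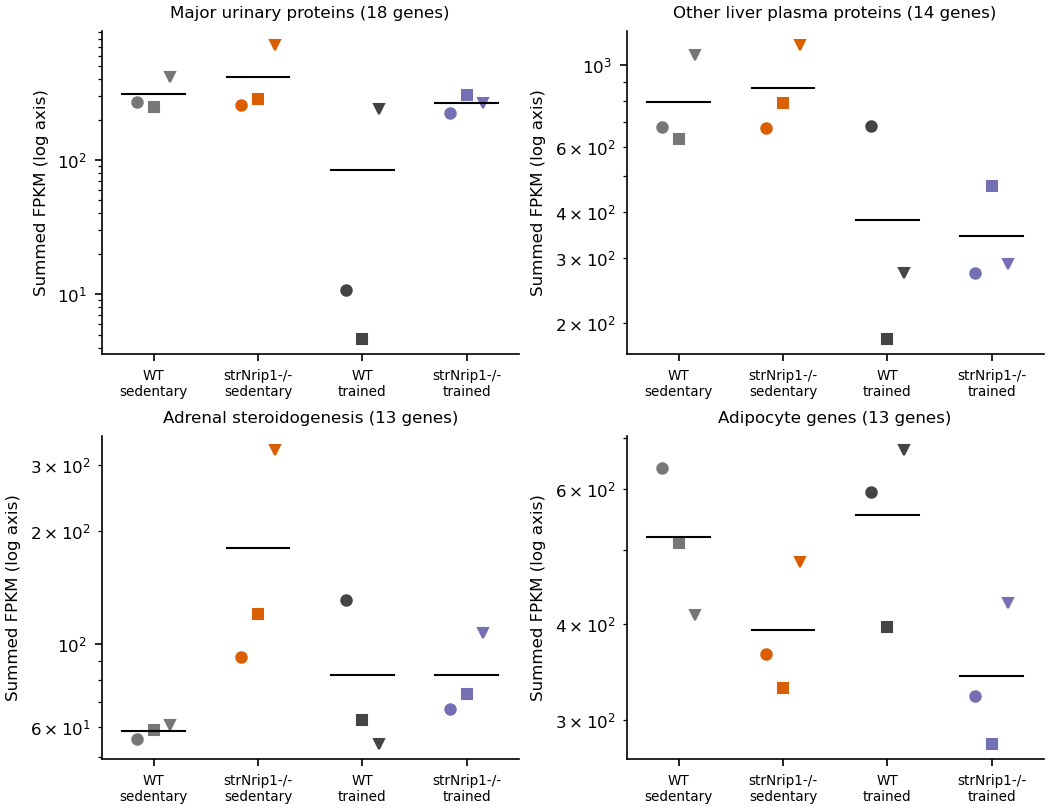
Summed FPKM of 4 gene groups (y axis, log scale) in each library by labelled group (x axis); circles, squares and triangles are replicates 1, 2 and 3 and bars are group means. Major urinary proteins are at 10.8 and 4.62 FPKM in WT trained replicates 1 and 2, and adrenal transcripts reach 328 FPKM in strNrip1-/- sedentary replicate 3.

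Adrenal genes formed the family with the most negative median. Star, which brings cholesterol into mitochondria for steroid synthesis, was at 4.94, 2.81 and 5.39 FPKM in WT sedentary, 9.85, 12.7 and 65 FPKM in strNrip1-/- sedentary, 18.9, 3.02 and 4.5 FPKM in WT trained and 2.66, 5.7 and 9.81 FPKM in strNrip1-/- trained libraries (interaction −2.38, SE 1.07, adjusted p = 0.637). The highest value was in strNrip1-/- sedentary replicate 3 and the next in WT trained replicate 1. All 11 tested genes of steroidogenesis were negative, beside 48.7% of all tested genes, with a median of −1.98. Of them 4 had an unadjusted p under 0.05, beside 3.37% of all genes that were negative at that level. These were Star, Soat1, which esterifies cholesterol (−1.98), Akr1cl (−2.08) and Fdxr, ferredoxin reductase (−1.17). Cyp11b1, the last enzyme of corticosterone synthesis, was at 17.7 FPKM in strNrip1-/- sedentary replicate 3, at 4.92 FPKM in WT trained replicate 1 and at 0.819 and 0.581 FPKM in the other WT trained libraries (interaction −2.28).

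Genes of the adrenal medulla were highest in the same library. Chga, chromogranin A of secretory granules, was at 19.4 FPKM in strNrip1-/- sedentary replicate 3 and 6.36 FPKM in WT trained replicate 1, and the other 10 libraries were between 1.69 and 5.32 FPKM. Without these 2 libraries, a setting added after the values were seen, the median of the steroidogenic list was −0.59 and Star was at −0.82. Both libraries were picked for high values in groups that enter the interaction with a minus sign, so its size was bound to shrink. Summed steroidogenic transcripts were 328 and 131 FPKM in them, beside 120 FPKM in strNrip1-/- sedentary replicate 2 and 107 FPKM in strNrip1-/- trained replicate 3. The adrenal lists were also drawn up after the values were seen, and the part of such transcripts in other results was not tested.

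The gene with the smallest p was Tut4, a terminal uridylyltransferase that adds uridines to the 3′ ends of RNAs. Tut4 (chr4:108459426-108559421, plus strand) was at 7.36, 5.72 and 9.07 FPKM in WT sedentary, 2.59, 3.41 and 3.03 FPKM in strNrip1-/- sedentary, 4.51, 4.48 and 5.9 FPKM in WT trained and 5.93, 8.49 and 7.37 FPKM in strNrip1-/- trained libraries. All 3 strNrip1-/- sedentary libraries were below every other library, and the strNrip1-/- trained libraries lay within the range of WT sedentary ones. The interaction was 1.66 (SE 0.25, 95% interval 1.1 to 2.21, adjusted p = 0.335). It was made of a genotype difference of −1.15 in sedentary muscle, which passed the test (adjusted p = 0.00583), and one of 0.50 in trained muscle, which did not (adjusted p = 0.127). Leaving out any 1 library kept the estimate between 1.51 and 1.82. Tut4 and the other genes of smallest p in the next 3 paragraphs were picked after their values were seen.

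In 54 genes the trained libraries lay above all sedentary libraries in strNrip1-/- and below them in WT (0.424%), and in 56 the reverse held (0.439%). Maf1, a repressor of RNA polymerase III, was of the first kind, at 82.7, 96 and 88.4 FPKM in WT sedentary, 80.5, 80.4 and 76.7 FPKM in strNrip1-/- sedentary, 68.5, 75.2 and 75.2 FPKM in WT trained and 93.9, 98.1 and 105 FPKM in strNrip1-/- trained libraries (interaction 0.60, SE 0.10, adjusted p = 0.335). Its genotype difference in trained muscle, 0.44, passed the test (adjusted p = 0.00619). Tpgs1, a subunit of a tubulin polyglutamylase (0.74), Pdxdc1 (0.70), Spns1, a lysosomal lipid transporter (0.91), Cstdc2 (1.82) and the pseudogene Gm15727 (1.31) had the same layout. Tcirg1, a subunit of the vacuolar proton pump, was positive too (0.86), with overlap between WT groups.

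Fkbp14, a prolyl isomerase of the endoplasmic reticulum that acts on collagens, was of the reverse kind. It was at 3.19, 3.57 and 2.98 FPKM in WT sedentary, 4.26, 3.34 and 3.6 FPKM in strNrip1-/- sedentary, 4.93, 4.98 and 4.51 FPKM in WT trained and 2.92, 2.41 and 2.37 FPKM in strNrip1-/- trained libraries (interaction −0.97, SE 0.16, adjusted p = 0.335). The WT trained libraries were the highest of all and the strNrip1-/- trained ones the lowest. Edem3, which takes part in degrading misfolded glycoproteins (−0.57), Nacc2 (−0.54), Frzb, a secreted Wnt antagonist (−0.54), 1700001O22Rik (−1.08), the pseudogene Gm15464 (−1.74) and Asph, whose locus also encodes the sarcoplasmic reticulum protein junctin (−0.40), were laid out alike. Tmem69 was negative (−0.55), with overlap between strNrip1-/- groups.

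Hnrnpa0, an RNA-binding protein, was at 26.5, 30.1 and 27 FPKM in strNrip1-/- trained libraries and between 18 and 21.6 FPKM in the other 9 (interaction 0.59, SE 0.11, adjusted p = 0.338), so that 1 group stood apart. Amhr2 was of the first kind above, with trained libraries above sedentary ones in strNrip1-/- and below them in WT. This gene, the type 2 receptor of anti-Müllerian hormone, was at 2.93, 2.38 and 3.82 FPKM in WT sedentary, 0.67, 0.853 and 0.347 FPKM in strNrip1-/- sedentary, 0.874, 0.247 and 1.19 FPKM in WT trained and 1.48, 1.36 and 2.74 FPKM in strNrip1-/- trained libraries (interaction 2.59, SE 0.45, adjusted p = 0.335). It was the only gene outside the major urinary proteins among the 10 largest positive protein-coding estimates with an unadjusted p under 0.05, and leaving out any 1 library kept it between 2.25 and 2.84.

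**Figure D3:**
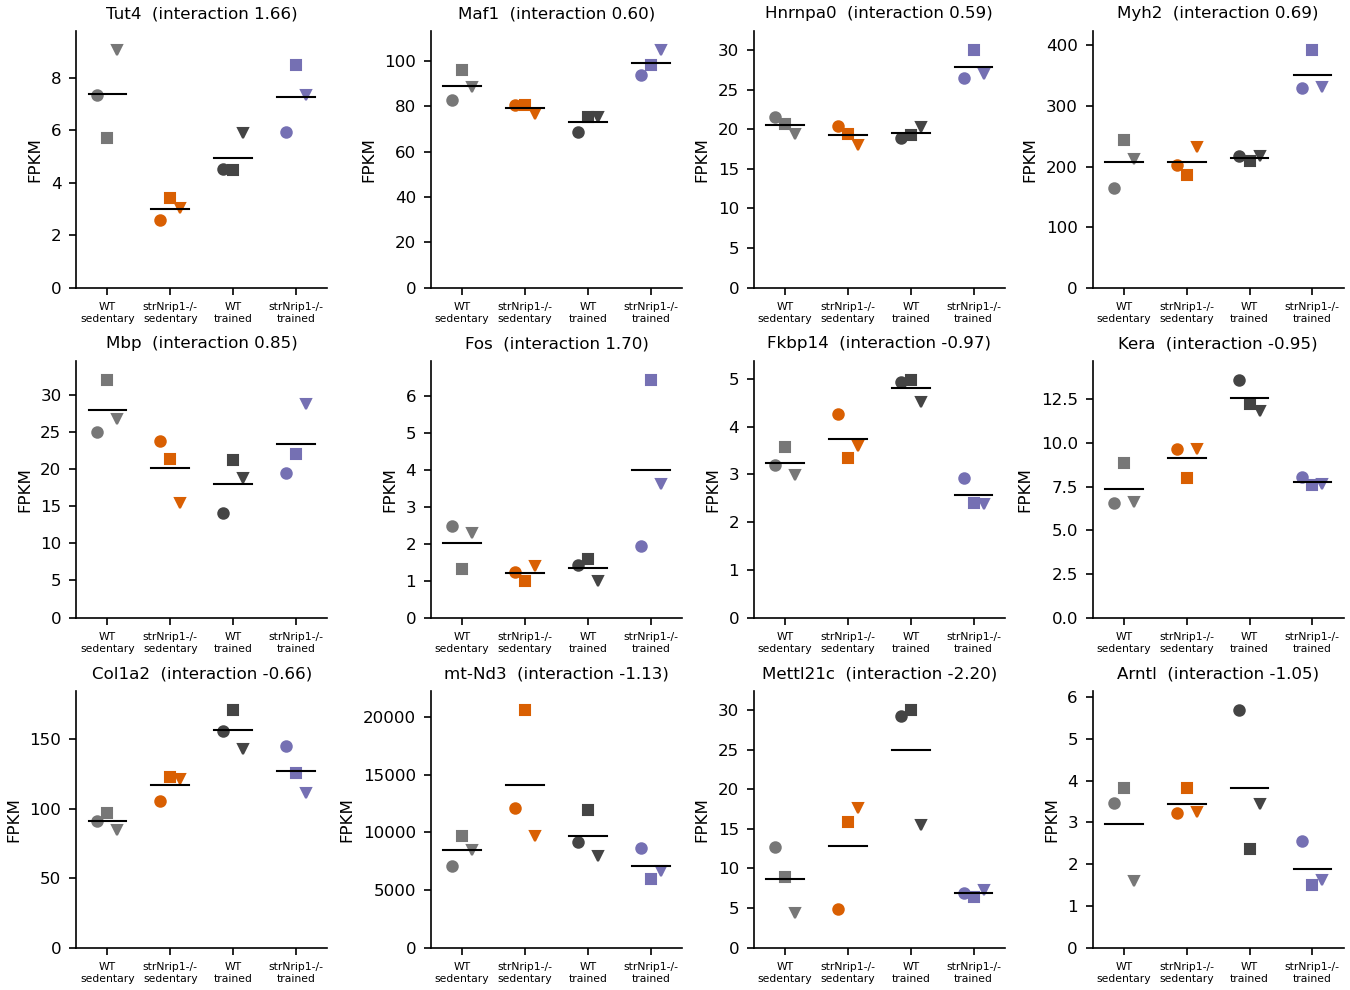
FPKM of 12 genes (y axis, from 0) in each library by labelled group (x axis); circles, squares and triangles are replicates 1, 2 and 3 and bars are group means. Tut4 is lowest in all 3 strNrip1-/- sedentary libraries, Maf1, Hnrnpa0 and Myh2 are higher in strNrip1-/- trained than in strNrip1-/- sedentary libraries, and Fkbp14 and Kera are highest in WT trained libraries; none of the interactions passed an adjusted p of 0.05.

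Among the large negative estimates outside the adrenal genes, Mettl21c, a lysine methyltransferase of muscle, was at 12.7, 8.89 and 4.35 FPKM in WT sedentary, 4.92, 15.9 and 17.6 FPKM in strNrip1-/- sedentary, 29.2, 30 and 15.4 FPKM in WT trained and 6.94, 6.36 and 7.25 FPKM in strNrip1-/- trained libraries (interaction −2.20, SE 0.65, adjusted p = 0.561). Every WT trained library was above every strNrip1-/- trained one, while the sedentary groups overlapped. Krt10, an epidermal keratin, had 3.44, 2.77 and 3.37 FPKM in WT trained and 1.66, 1.03 and 1.14 FPKM in strNrip1-/- trained libraries (interaction −1.77). Gm2026 was at 1.22, 0.151 and 0.957 FPKM in strNrip1-/- trained libraries and between 2.63 and 4.48 FPKM in the other 9 (interaction −1.83), and its genotype difference in trained muscle passed the test (−1.72, adjusted p = 0.00991). Gm12216 (−1.72), Gm13305 (−1.93) and Gm10600 (−2.08) were the remaining predicted genes.

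Nnt, the mitochondrial nicotinamide nucleotide transhydrogenase, had the most negative estimate of any protein-coding gene at an unadjusted p under 0.05 (−2.90). This gene identifier was listed at 0 in 9 libraries, and at 3.62 and 2.75 FPKM in strNrip1-/- sedentary replicates 1 and 3 and 3.38 FPKM in WT trained replicate 1. The size of such an estimate depends on the 0.5 that was added, and another gene model of the same name overlaps it on the same strand. Pseudogenes reached further. Gm28661 was at 3059, 121 and 2703 FPKM in WT sedentary, 2398, 20.6 and 794 FPKM in strNrip1-/- sedentary, 127, 0 and 115 FPKM in WT trained and 1869, 9861 and 5240.4 FPKM in strNrip1-/- trained libraries, so that replicates of 1 group differed many times over (interaction 9.43). Gm10146 (4.94), Gm13835 (−6.11), Rpl36a-ps2 (−4.83), Gm37116 (−3.20) and Gm45647 (−2.88) were each listed at 0 in several libraries.

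Single libraries carried part of the largest estimates but none of the best-supported ones. Of the 100 largest estimates in either direction, 55 were of protein-coding genes, the median level was 2.41 FPKM, and 17 lost over 50% or turned sign when 1 library was left out, most often strNrip1-/- sedentary replicate 3 (4 genes). The same held for 0 of the 100 genes with the smallest p, which a small p makes unlikely by construction, and for 67.8% of all tested genes, most of which had estimates near 0. Of the 989 genes at an unadjusted p under 0.05, 410 stayed under it in each of the 12 fits with 1 library left out, and the fewest, 594, without strNrip1-/- trained replicate 2. The positive genes had a median GC content of 55.6% and the negative ones 46.6%, beside 50.9% over all tested genes, and 597 of the 989 stayed under 0.05 once trends with GC content and length were removed.

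**Figure D4:**
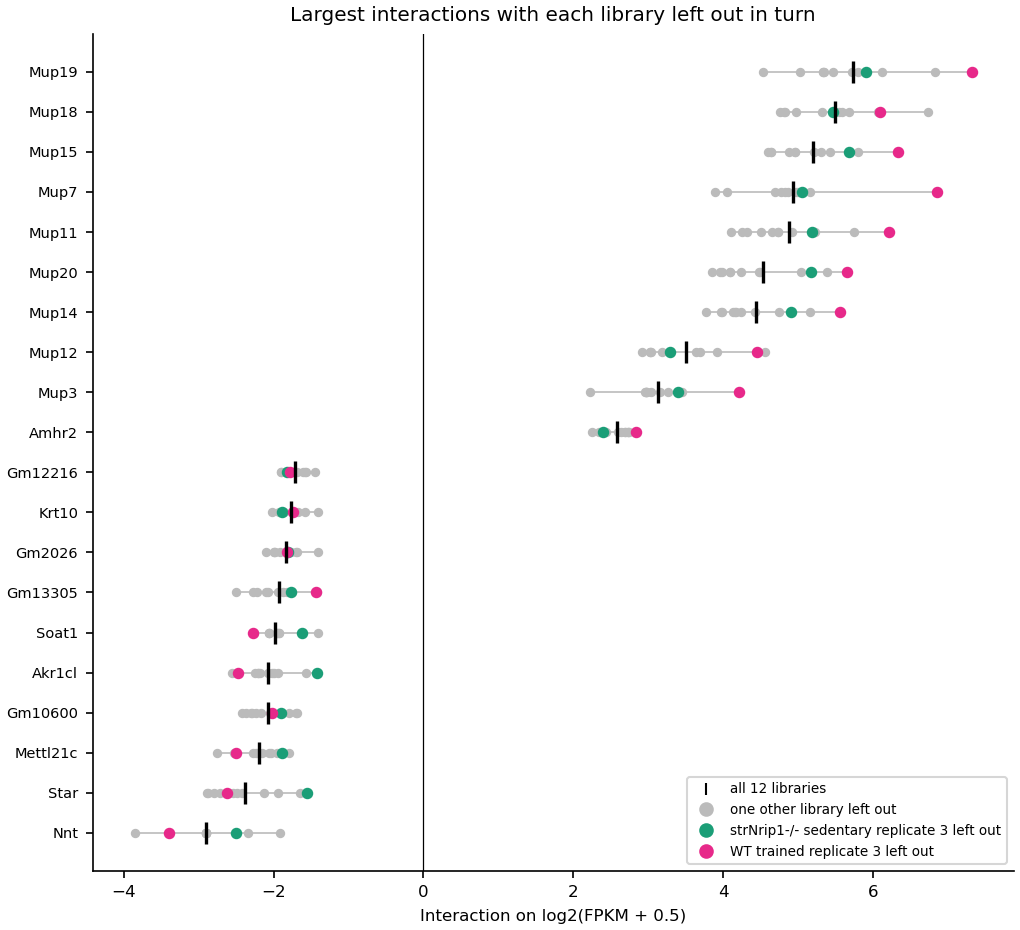
Interaction on log2(FPKM + 0.5) (x axis) of the 10 largest positive and 10 largest negative protein-coding genes with an unadjusted p under 0.05 (y axis); black bars are estimates from all 12 libraries and points those with 1 library left out. Mup7 runs from 3.89 to 6.86 and Star from −2.89 to −1.56. No point crosses 0, which choosing genes by a small p makes likely by construction.

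Tendon genes lay on the negative side. All 12 had negative interactions with all libraries used, beside 48.7% of all tested genes, with a median of −0.46. Of them 4 had an unadjusted p under 0.05, beside 3.37% of all genes that were negative at that level. Keratocan (Kera), a proteoglycan that orders collagen fibrils, was at 6.55, 8.88 and 6.63 FPKM in WT sedentary, 9.64, 8 and 9.67 FPKM in strNrip1-/- sedentary, 13.6, 12.2 and 11.8 FPKM in WT trained and 8.06, 7.58 and 7.67 FPKM in strNrip1-/- trained libraries (interaction −0.95, SE 0.17, adjusted p = 0.335). The 3 WT trained libraries were above all others. Its genotype difference in trained muscle, −0.66, passed the test (adjusted p = 0.00982). Tenomodulin (Tnmd), a membrane protein of tenocytes, was at 9.66, 16.1 and 13.2 FPKM in WT sedentary, 14, 20.4 and 13.4 FPKM in strNrip1-/- sedentary, 18.2, 19.8 and 19.4 FPKM in WT trained and 14.8, 13.8 and 13.7 FPKM in strNrip1-/- trained libraries (interaction −0.71). Cilp, a matrix protein of cartilage and tendon (−0.86), and tenascin C (Tnc, −0.41) were the other 2. Summed tendon transcripts ranged from 299 to 386 FPKM in WT sedentary, 356 to 670.5 FPKM in strNrip1-/- sedentary, 360.4 to 458 FPKM in WT trained and 341 to 389.7 FPKM in strNrip1-/- trained libraries. The highest of these sums was in strNrip1-/- sedentary replicate 2, and without that library the tendon median was −0.26 with 25% of the genes positive. Rescaled to the same total FPKM it was −0.26 with 16.7% positive, beside a median of 0.20 over all genes. In whole muscle, fewer cells of a type and less RNA per cell cannot be told apart.

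Col1a2, a chain of type I collagen, was at 91.5, 97.3 and 84.7 FPKM in WT sedentary, 106, 123 and 121 FPKM in strNrip1-/- sedentary, 156, 171 and 143 FPKM in WT trained and 145, 126 and 111 FPKM in strNrip1-/- trained libraries (interaction −0.66, SE 0.15, adjusted p = 0.437). The WT trained libraries were above all sedentary ones and overlapped the strNrip1-/- trained ones at 1 library. Col1a1 (−0.65) and Col5a2 (−0.64) were also negative, whereas Col20a1 was positive at about 1 FPKM (0.63). Of 30 collagens 22 were negative, beside 48.7% of all tested genes, with a median of −0.18. At an unadjusted p under 0.05, 3 were negative and 1 positive, beside 3.37% and 4.39% of all genes. Of 24 matrix and fibroblast genes 23 were negative, beside the same 48.7%, with a median of −0.27. Among them were the collagen cross-linking enzymes Lox (−0.69) and Loxl2 (−0.46). The matrix median was −0.21 without strNrip1-/- sedentary replicate 2 and −0.22 without WT trained replicate 2, with 25% of the genes positive in each case. Rescaling every library to the same total FPKM moved the median of all genes to 0.20. There the median was 0.00575 for collagens, a change of sign, and −0.05 for matrix genes. Both remained below that of all genes, and 50% of collagens and 33.3% of matrix genes were positive.

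Promoters of Col1a2, Kera and Tnmd are shown because these genes had interactions of the same sign. Each runs from 250 bases before to 50 bases after the start in RefSeq (GRCm38.p6), all on the plus strand, and capitals mark CCAAT or its complement ATTGG, the letters bound by NF-Y.
Col1a2 (chr6:4505368-4505667): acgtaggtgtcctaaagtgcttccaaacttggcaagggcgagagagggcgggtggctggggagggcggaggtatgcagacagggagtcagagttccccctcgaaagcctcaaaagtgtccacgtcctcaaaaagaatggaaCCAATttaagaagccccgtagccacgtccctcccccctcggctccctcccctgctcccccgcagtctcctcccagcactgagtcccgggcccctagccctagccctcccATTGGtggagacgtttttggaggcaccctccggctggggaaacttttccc
Kera (chr10:97606955-97607254): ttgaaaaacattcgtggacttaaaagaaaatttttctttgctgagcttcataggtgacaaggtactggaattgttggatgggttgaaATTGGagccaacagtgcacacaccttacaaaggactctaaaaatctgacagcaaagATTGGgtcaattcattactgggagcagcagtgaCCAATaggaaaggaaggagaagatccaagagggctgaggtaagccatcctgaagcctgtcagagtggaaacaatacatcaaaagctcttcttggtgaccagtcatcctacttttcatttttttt
Tnmd (chrX:133850758-133851057): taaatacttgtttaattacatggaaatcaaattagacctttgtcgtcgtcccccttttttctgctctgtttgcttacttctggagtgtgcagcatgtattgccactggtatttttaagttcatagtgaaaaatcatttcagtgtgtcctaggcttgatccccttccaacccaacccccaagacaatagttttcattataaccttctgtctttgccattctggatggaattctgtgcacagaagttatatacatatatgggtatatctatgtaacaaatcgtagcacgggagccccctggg

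These letters occurred 2 times in the Col1a2 window, 3 times in that of Kera and 0 times in that of Tnmd, and 37.4% of 32851 RefSeq promoters of this length held them at least once on either strand. The match is a description of the sequence only.

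Schwann cell and myelin genes lay on the positive side. Of 13 tested, 12 were positive, beside 51.3% of all tested genes, with a median of 0.47. An unadjusted p under 0.05 was reached by 3, beside 4.39% of all genes that were positive at that level. Myelin basic protein (Mbp), which compacts the myelin sheath, was at 25, 32 and 26.7 FPKM in WT sedentary, 23.7, 21.3 and 15.4 FPKM in strNrip1-/- sedentary, 14.1, 21.2 and 18.8 FPKM in WT trained and 19.4, 22 and 28.7 FPKM in strNrip1-/- trained libraries (interaction 0.85, SE 0.28, adjusted p = 0.579). WT trained libraries were all below WT sedentary ones, and the 2 strNrip1-/- groups overlapped. Sox10, a transcription factor of Schwann cells, was also positive (0.74). The summed level of the list ranged from 118 to 168 FPKM in WT sedentary, 89.8 to 126 FPKM in strNrip1-/- sedentary, 84.9 to 113 FPKM in WT trained and 100.1 to 147 FPKM in strNrip1-/- trained libraries.

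The 13 protein genes of the mitochondrial genome were all negative in the main fit, beside 48.7% of all tested genes, with a median of −0.43. Of them 8 had an unadjusted p under 0.05, beside 3.37% of all genes that were negative at that level. mt-Nd3, a subunit of complex I, was at 7110.3, 9689 and 8483 FPKM in WT sedentary, 12081, 20636 and 9645 FPKM in strNrip1-/- sedentary, 9143, 11979 and 7967 FPKM in WT trained and 8639.6, 5932 and 6624 FPKM in strNrip1-/- trained libraries (interaction −1.13, SE 0.37, adjusted p = 0.579). The 2 highest values were in strNrip1-/- sedentary libraries, and strNrip1-/- trained replicates 2 and 3 were the lowest. mt-Nd2 (−0.57) and mt-Nd6 (−0.38) were also negative, and mt-Nd6 overlaps mt-Nd5 on the opposite strand, which an unstranded library cannot separate. These genes make up the share of all FPKM from the mitochondrial genome, which therefore moves with them by construction. The share was 43.7 ± 1.35% in WT sedentary, 52.3 ± 0.918% in strNrip1-/- sedentary, 46.0 ± 1.92% in WT trained and 45.0 ± 1.12% in strNrip1-/- trained libraries (SD, n = 3 each). The median interaction of these genes was −0.12 after quantile normalization, with 15.4% of them positive. Rescaled to the same total FPKM it was −0.20, with 7.69% positive, beside a median of 0.20 over all genes. It was −0.23 after GC and length trends were removed, where mt-Nd2 was at −0.36 and mt-Nd6 at −0.14.

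Nuclear genes of oxidative metabolism had median interactions near 0. The median was 0.06 over 40 subunits of complex I, where none had an unadjusted p under 0.05. It was 0.06 over 42 subunits of complexes II to V, where Atp5g2 alone did (−0.59), 0.04 over 79 mitochondrial ribosomal proteins, where Mrps2 alone did (−0.37), and 0.00 over 18 genes of the TCA cycle. Rescaled to the same total FPKM, these 4 medians were 0.28, 0.28, 0.25 and 0.22, beside 0.20 for all genes. Between libraries of a group, the median log2 level of these lists had an SD of 0.19, 0.19, 0.15 and 0.09 in the same order. Such an SD describes single libraries and is not the error of an interaction, which combines all groups and was not estimated for lists. Medians near 0 therefore do not exclude an interaction as large as these SDs or larger.

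Fatty acid oxidation differed between genotypes in both conditions. Of 23 genes, 14 passed the test between genotypes in sedentary (3.51% of all genes) and 17 in trained muscle (5.98% of all genes). The median differences were 0.48 and 0.57. The median interaction was 0.07, with 19 positive beside 51.3% of all genes. Between libraries of a group the median log2 level of this list had an SD of 0.09. Whether the 2 differences were of equal size is therefore not settled. Acads, short-chain acyl-CoA dehydrogenase, was at 35, 37.8 and 34.5 FPKM in WT sedentary, 46.7, 45.7 and 43.5 FPKM in strNrip1-/- sedentary, 37.5, 37.1 and 33.6 FPKM in WT trained and 52.5, 56.4 and 52.7 FPKM in strNrip1-/- trained libraries (interaction 0.23, SE 0.10, adjusted p = 0.626). Both strNrip1-/- groups were above both WT groups, and the trained strNrip1-/- libraries were highest. Its interaction was 0.06 once GC and length trends were removed. Medians were also near 0 for glycolysis (0.04), lipid synthesis and storage (0.05) and glycogen and glucose uptake (−0.03), where Slc2a1, the glucose transporter GLUT1, was positive (0.52) and Ppp1r3a, a glycogen-targeting phosphatase subunit, negative (−0.29, and −0.09 once GC and length trends were removed).

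**Figure D5:**
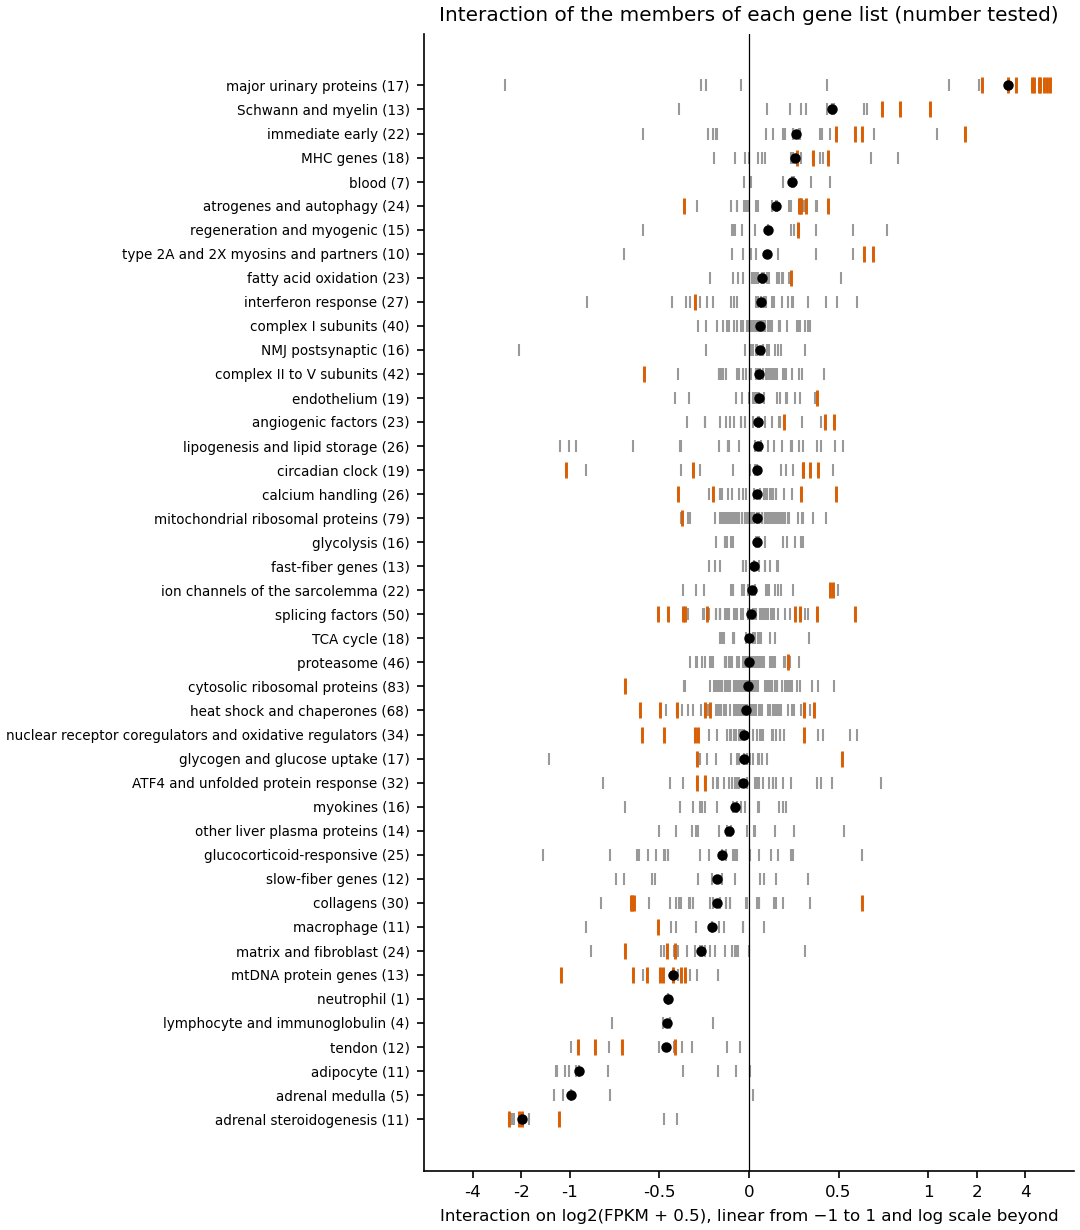
Interaction on log2(FPKM + 0.5) of the tested members of each gene list (x axis, linear from −1 to 1 and logarithmic beyond; y axis, list with the number tested); gray ticks are genes, orange ticks those with an unadjusted p under 0.05 and black dots medians. Lists of oxidative metabolism, ribosome and proteasome lie near 0 (near 0.20 when rescaled to the same total FPKM), tendon and mitochondrial genome lists to the left and Schwann and myelin to the right.

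The regulators of oxidative metabolism were divided, with 16 of 34 positive, beside 51.3% of all tested genes, and a median of −0.03. Esrra, the estrogen-related receptor α, was at 70.8, 71.3 and 69.8 FPKM in WT sedentary, 96.6, 104 and 94 FPKM in strNrip1-/- sedentary, 70.9, 74.5 and 65.1 FPKM in WT trained and 114, 127 and 120.2 FPKM in strNrip1-/- trained libraries. Its genotype difference passed the test in sedentary muscle (0.47, adjusted p = 0.00416) and in trained muscle (0.77, adjusted p = 0.000172), while the interaction was 0.30 (SE 0.10, adjusted p = 0.566) and 0.09 once GC and length trends were removed. Esrrg, the estrogen-related receptor γ, was at 3.6, 2.91 and 3.12 FPKM in WT sedentary, 3.89, 3.19 and 3.82 FPKM in strNrip1-/- sedentary, 5.68, 5.87 and 4.78 FPKM in WT trained and 4.54, 3.59 and 3.52 FPKM in strNrip1-/- trained libraries (interaction −0.60, SE 0.18, adjusted p = 0.561). Its 3 WT trained values were above all others. The same held for Ppargc1a, which encodes PGC-1α, at 5.03, 6.75 and 4.76 FPKM in WT trained libraries and 3.76 to 4.58 FPKM in the other 9 (interaction −0.47). Rxrg, a retinoid X receptor, had an interaction of −0.30.

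Of the contractile genes, Myh2, the type 2A myosin heavy chain, was at 165, 243 and 212 FPKM in WT sedentary, 203, 186 and 233 FPKM in strNrip1-/- sedentary, 217, 209 and 217 FPKM in WT trained and 329.8, 393 and 332 FPKM in strNrip1-/- trained libraries. Every strNrip1-/- trained library was above the other 9. The genotype difference was 0.71 in trained muscle, which passed the test (adjusted p = 0.0109), and 0.01 in sedentary muscle, but the interaction did not pass (0.69, SE 0.19, adjusted p = 0.536), and a gene on the opposite strand shares its span. Myh6, the α myosin heavy chain, had an interaction of 0.64. Both belonged to a list of 10 type 2A and 2X myosins and partners with a median of 0.10. In it 7 were positive and 3 negative, beside 51.3% and 48.7% of all tested genes. Only these 2 had an unadjusted p under 0.05, beside 4.39% of all genes that were positive at that level. The summed list was at 10260 to 11880 FPKM in WT sedentary and 8150 to 10250 FPKM in strNrip1-/- sedentary libraries. It was at 12450 to 13140 FPKM in WT trained and 10260 to 11720 FPKM in strNrip1-/- trained libraries. The 13 fast-fiber genes had a median of 0.03. The 12 slow-fiber genes had a median of −0.18 that ran from −0.55 to 0.51 as single libraries were left out, and their summed level ranged from 173 to 496 FPKM in WT sedentary, 202 to 503 FPKM in strNrip1-/- sedentary, 167 to 809 FPKM in WT trained and 249 to 406 FPKM in strNrip1-/- trained libraries.

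Calcium handling genes had a median of 0.04 with members on both sides. Asph was at 126, 132 and 126 FPKM in WT sedentary, 109, 104 and 102 FPKM in strNrip1-/- sedentary, 142, 139 and 142 FPKM in WT trained and 93.5, 83.1 and 87.2 FPKM in strNrip1-/- trained libraries (interaction −0.40, SE 0.08, adjusted p = 0.437). Its genotype difference passed the test in both conditions, at −0.28 in sedentary (adjusted p = 0.0259) and −0.68 in trained muscle (adjusted p = 0.000172). Ppp3r1, the regulatory subunit of calcineurin, was negative (−0.20), and Cacna1s, the L-type calcium channel of the T-tubule (0.29), and Jsrp1, a protein of the triad junction (0.48), were positive. The sarcolemmal potassium channel Kcna7 (0.47) was positive in a list with a median of 0.01. Once GC and length trends were removed, the values were −0.06 for Ppp3r1, 0.24 for Jsrp1 and 0.31 for Kcna7, and rescaled to the same total FPKM Ppp3r1 turned sign (0.0194).

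Immediate early genes, which respond to contraction and other stimuli within minutes, were positive in 17 of 22 cases beside 51.3% of all genes, with a median of 0.26, and 4 were positive at an unadjusted p under 0.05 beside 4.39% of all genes. Fos was at 2.49, 1.3 and 2.29 FPKM in WT sedentary, 1.22, 1 and 1.4 FPKM in strNrip1-/- sedentary, 1.43, 1.6 and 1 FPKM in WT trained and 1.93, 6.44 and 3.61 FPKM in strNrip1-/- trained libraries (interaction 1.70, SE 0.46, adjusted p = 0.536). The strNrip1-/- trained replicates 2 and 3 were the highest of all, and replicate 1 lay among the WT sedentary libraries. Ier3 (0.59) and Jund (0.63) were also positive. Among clock genes, with a median of 0.05, Arntl, which encodes BMAL1, was at 3.48, 3.83 and 1.6 FPKM in WT sedentary, 3.22, 3.82 and 3.25 FPKM in strNrip1-/- sedentary, 5.7, 2.35 and 3.45 FPKM in WT trained and 2.55, 1.51 and 1.61 FPKM in strNrip1-/- trained libraries (interaction −1.05). Its strNrip1-/- trained values were low, and the WT trained values spread widely. Nr1d2 was negative (−0.31), and Dbp (0.30) and Cry2 (0.39) were positive. Jund was at 0.33 and Dbp at 0.19 once GC and length trends were removed.

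Antigen presentation genes were positive in 14 of 18 cases beside 51.3% of all genes (median 0.26). H2-K1, a classical class I molecule, was at 96.3, 97.3 and 85.6 FPKM in WT sedentary, 97.6, 85.8 and 82.3 FPKM in strNrip1-/- sedentary, 76.6, 61.6 and 62 FPKM in WT trained and 86.2, 84.6 and 86.7 FPKM in strNrip1-/- trained libraries (interaction 0.44, SE 0.14, adjusted p = 0.561). WT trained libraries were below the other 9. H2-D1 (0.27) and Tapbp, the peptide-loading chaperone tapasin (0.36), followed. Among genes of atrophy and autophagy (median 0.15), the autophagosome protein Map1lc3b (0.29), the cargo receptor Sqstm1 (0.28) and the kinase Ulk1 (0.44) were positive and the ubiquitin ligase Fbxo30 negative (−0.36). Splicing factors had a median of 0.01, with Cirbp (0.38) and Srsf4 (0.26) positive and Mbnl2 (−0.51), Srsf10 (−0.45) and Hnrnph1 (−0.37) negative. Chaperones had a median of −0.02, with Dnajb2 (0.31) and Dnajc4 (0.36) positive and Hspd1 (−0.22), Hspa13 (−0.40) and Dnaja1 (−0.61) negative. Once GC and length trends were removed, Tapbp was at 0.17, Fbxo30 at −0.23, Cirbp at 0.25 and Dnajb2 at 0.20, and Hspd1 turned sign at the same total FPKM (0.00315).

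Vascular lists had medians close to 0. Positive interactions were found for 15 of 19 endothelial and 13 of 23 angiogenic genes, beside 51.3% of all tested genes. At an unadjusted p under 0.05, 1 endothelial and 3 angiogenic genes were positive, beside 4.39% of all genes, and 0 were negative. The medians were 0.06 for endothelium and 0.05 for angiogenic factors, in which the Notch ligand Dll4 (0.42), its receptor Notch1 (0.48) and the oxygen sensor Egln1 (0.19) were positive, as was the endothelial coreceptor Eng (0.38). The unfolded protein response had a median of −0.03, with Hsp90b1 (−0.25) and Pdia4 (−0.29) negative. Interferon-responsive genes had a median of 0.07. Myogenic and regeneration genes had a median of 0.11, with desmin (Des) positive (0.27). Cytosolic ribosomal proteins (0.00, with Rpl22l1 at −0.69), the proteasome (0.00, with Psmd3 at 0.22), the neuromuscular junction (0.06), myokines (−0.08) and glucocorticoid-responsive genes (−0.15) gave the remaining medians. Egln1 was at 0.11, Hsp90b1 at −0.14 and Psmd3 at 0.13 once GC and length trends were removed.

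Markers of other cell types moved in places with these lists. Adipocyte genes had a median of −0.95 with 10 of 11 negative, beside 48.7% of all tested genes, and none at an unadjusted p under 0.05. The median was −0.18 without WT trained replicate 1 and strNrip1-/- sedentary replicate 3. Their median genotype difference was 0.99 in sedentary and 0.13 in trained muscle. The summed level did not follow these medians. It ranged from 411 to 639 FPKM in WT sedentary, 331 to 482 FPKM in strNrip1-/- sedentary, 397 to 673 FPKM in WT trained and 279 to 426 FPKM in strNrip1-/- trained libraries. Macrophage genes had a median of −0.21, with Mrc1 negative (−0.51), and blood genes one of 0.24. Lymphocyte genes were negative in 4 of 4 tested cases, beside 48.7% of all tested genes, and the 1 neutrophil gene tested was negative (−0.45). The part of these cell types in the other results was not tested.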

How the data were processed

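RNA from EDL muscle of 12 mice was made into libraries with the NEBNext Ultra kit, which does not keep strand. Per the submitters' processing notes the authors used Salmon 1.10.2, DESeq2 1.44.0 and the mm10 build, and they deposited 1 FPKM value per gene and library; the annotation release and the function that gave FPKM are not given in the sources used here. The deposited table also holds the authors' own fold changes and adjusted p-values, which were not used.

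Genes averaging 0.5 FPKM or more were fitted on log2(FPKM + 0.5) with limma 3.58.1 (R 4.3.3; 4 group means, trended variance prior), and p-values were adjusted by the Benjamini-Hochberg method over all 12744 tested genes. FPKM are not counts, so no count model was run. Fold changes on this scale understate those of low genes. Each library's depth, read from the spacing of its low FPKM values, was 20.05 to 28.90 M fragments, with 98.98 to 99.74% of such values within 0.15 of a whole fragment. Nothing in the labels says how the replicates were collected beyond their numbers, so the p-values measure the spread between these samples. Gene positions are from GENCODE M21 (17745 of 17752 identifiers matched), and the fit was tested on simulated data.

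Named genes were Nrip1, the 10 protein-coding genes with the largest estimate in each direction at an unadjusted p under 0.05, the 5 largest in each direction at any p, and up to 3 members per direction of each of 40 gene lists at an unadjusted p under 0.05, plus others named as chosen after their values were seen; some genes that this rule named are not reported here. The members and lists were chosen with earlier results of these data known, so lists are described by counts and medians and not tested. Alternatives covered the pseudocount, the filter, scaling, variance prior, library weights, GC and length trends, a replicate block and leaving out libraries.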

Additional observations from a re-analysis of the deposited data

How the results depend on the processing

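The count of interaction calls was 0 in each setting except without WT trained replicate 3, where it was 1 (leave-one-out range 0 to 1). Genes at an unadjusted p under 0.05 numbered 604 at a mean of at least 5 FPKM and 2179 with every library rescaled to the same total, where 96.4% were positive against 56.6% in the main fit; 560 of the 560 positive and 76 of the 429 negative genes stayed under it there. Same-numbered samples did not deviate together throughout: 5 of 18 pairs had a correlation over 0.1 (range −0.105 to 0.241). The median was −0.0095, beside −0.0025 for differently numbered pairs, whose highest value was 0.196. The highest same-numbered values were among replicates 2 of WT sedentary, strNrip1-/- sedentary and WT trained (0.162, 0.195 and 0.241). With strNrip1-/- trained replicate 2 these libraries correlated at −0.105 to −0.029. The reason was not tested, and the numbers were not taken as pairs. With the replicate block 1033 genes were at an unadjusted p under 0.05, 863 of them shared with the 989.

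Genotype calls in sedentary muscle were 690 with library weights and 163 to 478 with 1 library left out (163, 222 and 216 without WT sedentary replicates 1, 2 and 3, and 260 without strNrip1-/- sedentary replicate 1); 54.8% were higher in strNrip1-/-, 18.6% at the same total and 82.7% at the same nuclear total. In trained muscle they were 1366 with library weights, 315 to 874 with 1 library left out (385 without WT trained replicate 1 and also without replicate 3, 333 and 315 without strNrip1-/- trained replicates 2 and 3), 189 without WT trained replicates 1 and 2, and 426 without WT trained replicate 1 and strNrip1-/- sedentary replicate 3; 53.7% were higher, 80.9% at the same total and 75.8% at the same nuclear total. Training calls in WT were 8 at a mean of at least 5 FPKM, 4 after quantile normalization, 1 at the same total and 2 at the same nuclear total. They were 11 with library weights, 4 with the replicate block and 1 with the block and GC correction. With 1 library left out they were 0 to 30 (30 without WT trained replicate 1). Without the pair of WT trained replicate 1 and strNrip1-/- sedentary replicate 3 they were 45. In strNrip1-/- they were 5, 150 at the same total, 3 at the same nuclear total, 13 with library weights, 0 to 4 with 1 left out and 5 without the pair.

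The mitochondrial genome median was −0.118 after quantile normalization, −0.205 at the same total (0.20 over all genes) and −0.234 after GC correction, with or without the block. The collagen median was 0.00575 at the same total, −0.294 with library weights, −0.327 after GC correction, with or without the block, −0.30 to −0.14 with 1 library left out and −0.287 without the pair. The matrix median was −0.0485 at the same total, the tendon median −0.743 without WT trained replicates 1 and 2, −0.26 at the same total and −0.63 to −0.26 with 1 library left out (lowest in size without strNrip1-/- sedentary replicate 2), and the Schwann cell median 0.845 at a mean of at least 5 FPKM. The major urinary protein median was 4.44 at a mean of at least 5 FPKM, 2.22 to 4.22 with 1 library left out and 1.08 without WT trained replicates 1 and 2. The steroidogenic median was −2.44 to −1.24 with 1 library left out, −1.12 without those 2 and −0.59 without the pair. Nrip1 ran from −0.14 to 0.25 with 1 library left out and was −0.17 without the pair, and at the same total Ppp3r1 was 0.0194 and Hspd1 0.00315. The cause of these shifts was not tested.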
